A study of Mus musculus with 6 samples.

Results

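The corticosteroid system of the brain was examined through the genes that receive the hormone, set its local supply and prepare its receptors for binding. The rule took every probe whose gene symbol in the table was Nr3c1, Nr3c2, Hsd11b1, Hsd11b2, Crhr1, Fkbp4, Ptges3, Ncoa1 or Ncoa2. It found 7 of the 9 genes among the 18138 symbols of the table, through 13 of its 25697 probes. No probe was listed under Nr3c2 or Ncoa1, whose expression was therefore not measured here. Whole brains of male FVB mice at postnatal day 6 had been measured on MouseRef-8 bead arrays, on which the brightness of a probe reads the amount of its transcript. There were 3 hSRY-OFF and 3 hSRY-ON arrays, each of another mouse. By the definitions in the paper's methods, all 6 mice carried the Signalox-hSRY transgene, a single copy at the H11 locus of chromosome 11 driven by the widely active CAG promoter. The paper's results also call the array comparators control pups, a name it gives elsewhere to littermates without this transgene. As the methods define them, hSRY-OFF mice had the transgene unrecombined, so that DsRed2 was produced and the FLAG-tagged human SRY with EGFP was silent. In hSRY-ON mice Cre from the oocytes of Ddx4-Cre mothers had removed the DsRed2 cassette at the single-cell stage, and the mice chosen for the arrays did not themselves carry Ddx4-Cre. Activation was therefore not limited to a cell type of the brain. Whether the groups shared litters was not given in the sources used here, and the paper calls the array controls age-matched. The paper reports recombination in offspring of Ddx4-Cre mothers whether or not they inherit Ddx4-Cre. Unrecombined hSRY-OFF pups may thus have had other mothers and litters, which cannot be told apart from the transgene.

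Corticosterone, the main glucocorticoid of the mouse, enters brain cells and binds a high-affinity mineralocorticoid receptor (Nr3c2) and a lower-affinity glucocorticoid receptor (Nr3c1). Before binding, these receptors are held by HSP90 with the cochaperone p23 (Ptges3) and an immunophilin, either FKBP52 (Fkbp4), which favours hormone binding and transport to the nucleus, or FKBP51 (Fkbp5), which opposes them. The enzyme Hsd11b1 regenerates active corticosterone from its inert 11-keto form inside the cell, and Hsd11b2 performs the opposite step. Crhr1 is the receptor for corticotropin-releasing hormone, the peptide that drives the adrenal axis and also acts within the cortex, hippocampus and cerebellum. In the first weeks of life the rodent adrenal responds weakly to stress, and brain levels of the hormone are held low.

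Of the 13 probes, 10 were detected on all 6 arrays, 1 on 4 arrays and 2 on none, where detection means that a probe was brighter than all but a share of under 0.05 of the negative-control beads. The single Nr3c1 probe (ILMN_2740568) was not detected above background on any array. Its deposited signal was 179.8, 174.3 and 156.7 on the hSRY-OFF arrays and 168.5, 161.1 and 177.3 on the hSRY-ON arrays, with detection p-values between 0.157 and 0.687. The lowest signal that counted as detected lay between 184 and 203 on the 6 arrays, so this probe gave no usable measurement of the glucocorticoid receptor in either group. One of the 4 Hsd11b1 probes (ILMN_3041149) was likewise not detected on any array, at detection p-values of 0.330 to 0.921, while the other 3 were detected on all of them.

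**Figure D1:**
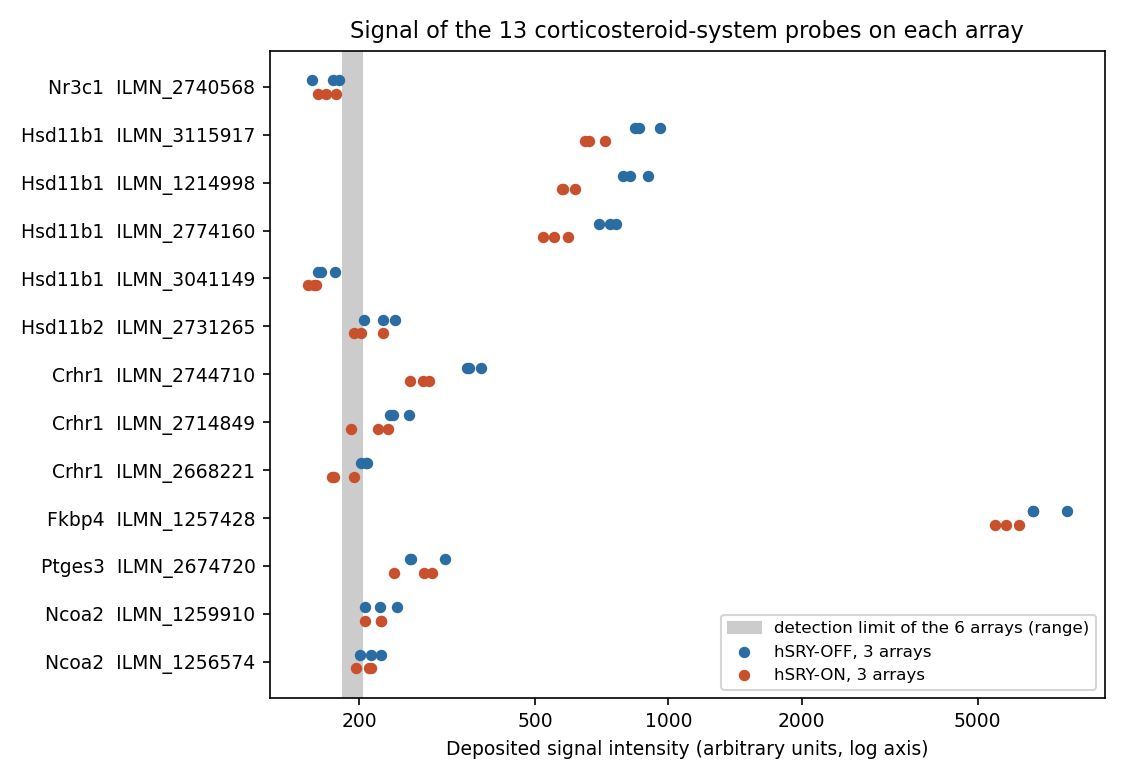
Deposited signal intensity (arbitrary units, log axis) of the 13 probes, with 1 point for each of the 3 hSRY-OFF and 3 hSRY-ON arrays and a grey band for the range of the lowest detected signal on the 6 arrays. The Nr3c1 probe and 1 Hsd11b1 probe lie to the left of the band, and the other 3 Hsd11b1 probes and the Fkbp4 probe lie far to its right with the hSRY-ON points below the hSRY-OFF points.

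Expression of Hsd11b1 and Crhr1 was lower in hSRY-ON brain at 1 called probe each. At an adjusted p under 0.05, limma called 2 of the 11 tested probes, 1 for Hsd11b1 and 1 for Crhr1, both lower, where 2.17% of the 14215 tested probes of the table were called in either direction, 1.32% lower and 0.844% higher. At an unadjusted p under 0.05 there were 6 of the 11, all lower, against 20.9% of all tested probes in either direction and 10.9% lower. The 3 hSRY-ON arrays lay wholly below the 3 hSRY-OFF arrays at 6 of the 11 probes, against 14.2% of all tested probes (27.7% separated in either direction), and these 6 belonged to 3 genes, Hsd11b1, Crhr1 and Fkbp4. The median log2 fold change, hSRY-ON minus hSRY-OFF, was -0.41 over the 11 probes and 0.0048 over all tested probes. One of the 6, Crhr1 ILMN_2668221, is in both counts although it was detected on only 1 hSRY-ON array and met the filter mainly through hSRY-OFF. Over the 10 probes detected on all arrays, 5 were in each count and the median was -0.33. Probes of 1 gene share their source RNA and are not counted as separate evidence. The other 5 probes, for Hsd11b2, Ptges3, Ncoa2 and 1 site of Crhr1, had groups that overlapped.

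Sequences before the transcription start are shown for the 3 genes whose groups were separated, because they are the stretches a reader would search for shared regulatory motifs. They are the 250 bases before the start in RefSeq (GRCm38.p6), written 5′ to 3′ on the strand of the gene, with matches to the motifs below in capitals. The Crhr1 gene lies on chromosome 11, as does the transgene, and any effect of their positions was not tested.
Hsd11b1, chr1:193242361-193242610, minus strand: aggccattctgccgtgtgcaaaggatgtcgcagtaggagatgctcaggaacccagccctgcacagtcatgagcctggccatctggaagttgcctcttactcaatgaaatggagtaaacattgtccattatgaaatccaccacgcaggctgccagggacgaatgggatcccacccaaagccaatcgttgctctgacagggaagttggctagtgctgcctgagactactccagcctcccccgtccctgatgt
Crhr1, chr11:104132531-104132780, plus strand: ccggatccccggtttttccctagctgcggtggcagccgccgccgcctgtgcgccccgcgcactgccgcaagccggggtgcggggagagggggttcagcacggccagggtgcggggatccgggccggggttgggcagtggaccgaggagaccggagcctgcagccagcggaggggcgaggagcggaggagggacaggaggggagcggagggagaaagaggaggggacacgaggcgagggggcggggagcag
Fkbp4, chr6:128438657-128438906, minus strand: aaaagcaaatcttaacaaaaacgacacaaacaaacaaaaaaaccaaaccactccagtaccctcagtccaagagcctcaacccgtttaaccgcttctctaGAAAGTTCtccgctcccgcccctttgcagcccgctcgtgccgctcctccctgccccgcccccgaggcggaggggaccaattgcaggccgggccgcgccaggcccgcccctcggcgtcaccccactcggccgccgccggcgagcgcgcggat

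Of the 9 symbols, 6 had an entry among the RefSeq promoters. Both strands were searched for AACAAT, the core that SRY binds, for AGAACA, one arm of the glucocorticoid response element, and for GAANNTTC and TTCNNGAA, paired units of the heat shock element. AACAAT was present in 9.42% of all 32851 such stretches, AGAACA in 16.1%, GAANNTTC in 6.69% and TTCNNGAA in 7.17%. The only match in the 3 printed sequences was GAANNTTC in Fkbp4, which begins 151 bases before the start. Of the stretches not printed, that of Nr3c2 also held 1 GAANNTTC match, beginning 151 bases before the start. Hsd11b1 and Crhr1 held none of the 4 motifs in this window. The Hsd11b1 stretch was 54.4% G and C, that of Fkbp4 63.2% and that of Crhr1 74.8%.

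Hsd11b1 was lower at each of its 3 detected probes. On the normalized log2 scale, used from here on for all levels and differences, the probe ILMN_1214998 read 9.35, 9.34 and 9.45 in hSRY-OFF and 8.82, 8.81 and 8.81 in hSRY-ON. The hSRY-ON arrays were nearly equal, and all lay below the dimmest hSRY-OFF array. The mean fell from 9.38 ± 0.063 to 8.81 ± 0.0089 (SD, n = 3 per group), a log2 fold change of -0.57 (SE 0.075, 95% interval -0.74 to -0.39, limma adjusted p 0.0263), which leaves 0.676 of the hSRY-OFF level.

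The probe ILMN_2774160 read 9.07, 9.22 and 9.16 in hSRY-OFF and 8.60, 8.62 and 8.87 in hSRY-ON. Here hSRY-ON array 3 stood above the other two hSRY-ON arrays but still below every hSRY-OFF array. The difference was -0.45 (SE 0.10, limma adjusted p 0.0698) and did not pass the threshold. The brightest probe, ILMN_3115917, read 9.46, 9.45 and 9.53 in hSRY-OFF and 8.96, 9.22 and 9.03 in hSRY-ON, again without overlap, with a difference of -0.41 (SE 0.094, limma adjusted p 0.0730). The 3 estimates for this enzyme, which makes active glucocorticoid within the cell, ran from -0.57 to -0.41, with 95% intervals that together spanned -0.74 to -0.19, and from -0.44 to -0.33 without background correction. The call on ILMN_1214998 was lost without any 1 of hSRY-OFF arrays 1, 2 and 3 or hSRY-ON arrays 1 and 2, at adjusted p-values of 0.0921, 0.109, 0.0906, 0.0840 and 0.0725 in that order, and was kept without hSRY-ON array 3 (0.0350). In those fits the difference stayed between -0.58 and -0.53.

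Hsd11b2, the enzyme that inactivates corticosterone, was measured near the detection limit. Its probe (ILMN_2731265) read 6.23, 5.80 and 6.32 in hSRY-OFF and 5.63, 5.70 and 6.31 in hSRY-ON. Arrays 1 and 2 of hSRY-ON were the lowest and array 3 was as bright as the hSRY-OFF arrays, so the groups overlapped. The difference of -0.24 had a 95% interval from -0.75 to 0.26 (limma adjusted p 0.564), which is wide enough to hold both no change and a fall as large as that of Hsd11b1. It ranged from -0.46 to -0.12 with 1 array left out and was -0.070 without background correction.

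Crhr1 had 3 tested probes, of which 1 was called lower. ILMN_2744710, the brightest, read 7.60, 7.70 and 7.72 in hSRY-OFF and 7.08, 7.12 and 6.84 in hSRY-ON, with no overlap. The mean fell from 7.67 ± 0.061 to 7.01 ± 0.15 (SD, n = 3 per group), a log2 fold change of -0.66 (SE 0.10, 95% interval -0.90 to -0.42, limma adjusted p 0.0330), or 0.633 of the hSRY-OFF level. This was the largest difference among the 11 tested probes under the main setting, but not without background correction, with normexp and an offset of 50, or without hSRY-ON array 3.

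The other Crhr1 probes were dimmer and more variable in hSRY-ON. ILMN_2668221 read 5.57, 5.87 and 5.79 in hSRY-OFF and 4.86, 5.14 and 5.55 in hSRY-ON. The groups were separated by only 0.023, and the probe was detected on 3 hSRY-OFF arrays and 1 hSRY-ON array, so it entered the test mainly through the group in which it was brighter. Its difference was -0.56 (SE 0.18, limma adjusted p 0.143), with most of the hSRY-ON group not above background. ILMN_2714849 read 6.52, 6.44 and 6.54 in hSRY-OFF and 6.09, 5.62 and 6.44 in hSRY-ON, where array 3 reached the hSRY-OFF range. Its difference was -0.45 (SE 0.19, 95% interval -0.91 to 0.0057, limma adjusted p 0.242), and without hSRY-ON array 2 it was -0.24. Array 3 was thus the highest of the hSRY-ON arrays at these 2 probes and the lowest at ILMN_2744710, and the probes did not rank the hSRY-ON arrays alike.

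The size of the Crhr1 difference changed with how background was removed. The mean deposited signal at the brightest probe was 360 in hSRY-OFF and 276 in hSRY-ON. Without background correction the difference at ILMN_2744710 was -0.34 (limma adjusted p 0.00553), and at the dimmer probes it was -0.16 (0.191) and -0.15 (0.239). The call on ILMN_2744710 was lost without any 1 of hSRY-OFF arrays 1, 2 and 3 or hSRY-ON arrays 1 and 2, at adjusted p-values of 0.0962, 0.115, 0.104, 0.0848 and 0.0698 in that order. It was kept without hSRY-ON array 3 (0.0339) and lost with no filter on dim probes (0.0528) and with the replicate block (0.105).

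**Figure D2:**
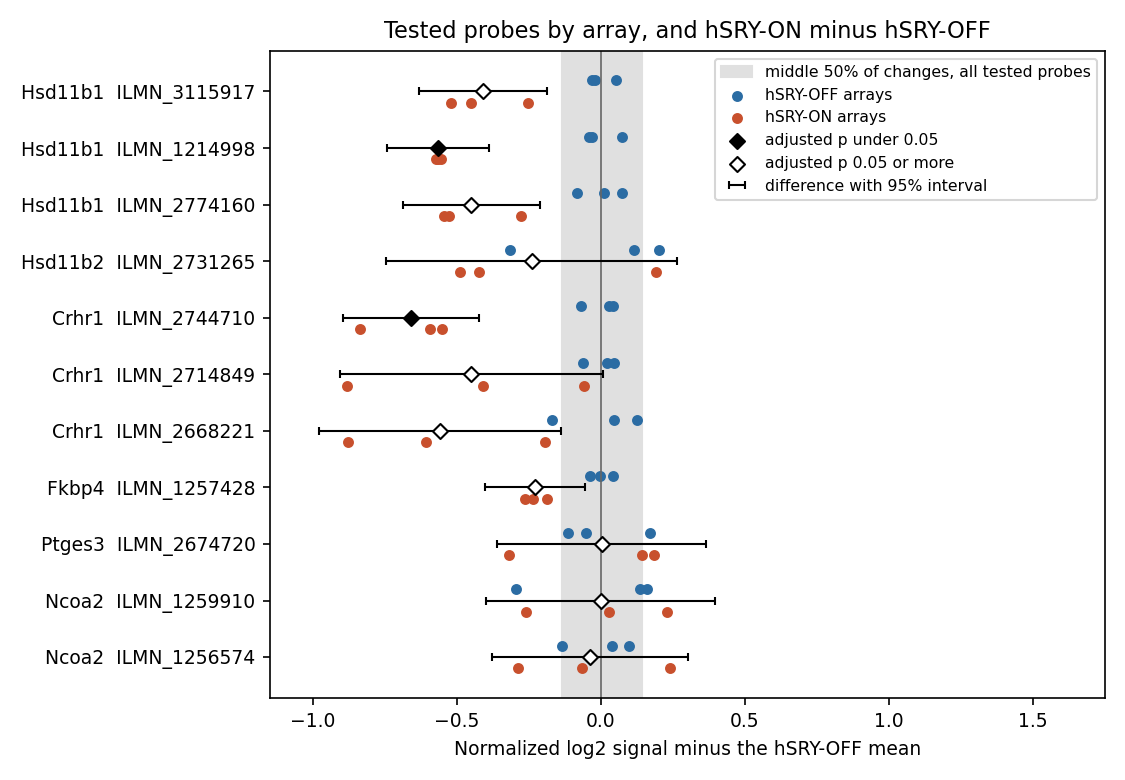
Normalized log2 signal of the 11 tested probes on each array, shown as the difference from the mean of the 3 hSRY-OFF arrays, with the difference between the groups (diamond, filled where the limma adjusted p is under 0.05) and its 95% interval. The grey band is the middle 50% of the differences over all 14215 tested probes (-0.14 to 0.14). The Hsd11b1, Hsd11b2, Crhr1 and Fkbp4 diamonds lie to the left of the band, the intervals of Hsd11b2 and Crhr1 ILMN_2714849 cross 0, and those of Ptges3 and Ncoa2 lie at 0.

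Among the receptor chaperones, Fkbp4 was measured far above background and its small difference did not pass the threshold. Its probe (ILMN_1257428) read 12.77, 12.69 and 12.73 in hSRY-OFF and 12.54, 12.46 and 12.49 in hSRY-ON. The groups did not overlap and the replicates of each were within 0.1 of each other. The difference was -0.23 (SE 0.074, 95% interval -0.40 to -0.056, limma adjusted p 0.145). It passed at 0.0410 without background correction (-0.22) and at 0.0102 when the prior variance followed brightness and was also made robust.

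Ptges3, the cochaperone p23 that closes the HSP90 clamp on the receptor, read 7.10, 6.82 and 6.88 in hSRY-OFF and 7.12, 6.61 and 7.07 in hSRY-ON (ILMN_2674720). The hSRY-ON values spanned the whole hSRY-OFF range. The difference was 0.0025, with a 95% interval from -0.36 to 0.37 (limma adjusted p 0.997). Its direction turned with median scaling (-0.014) and cyclic loess (-0.0030), so it has no settled sign.

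Ncoa2, a p160 coactivator that binds ligand-loaded steroid receptors, had 2 probes near the detection limit. At ILMN_1259910 the arrays lay between 5.83 and 6.28 in hSRY-OFF and between 5.86 and 6.35 in hSRY-ON, and at ILMN_1256574 between 5.76 and 5.99 and between 5.61 and 6.13. The groups overlapped fully at both. The differences were -0.00086 (95% interval -0.40 to 0.40, limma adjusted p 0.999) and -0.038 (-0.38 to 0.30, limma adjusted p 0.910).

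**Figure D3:**
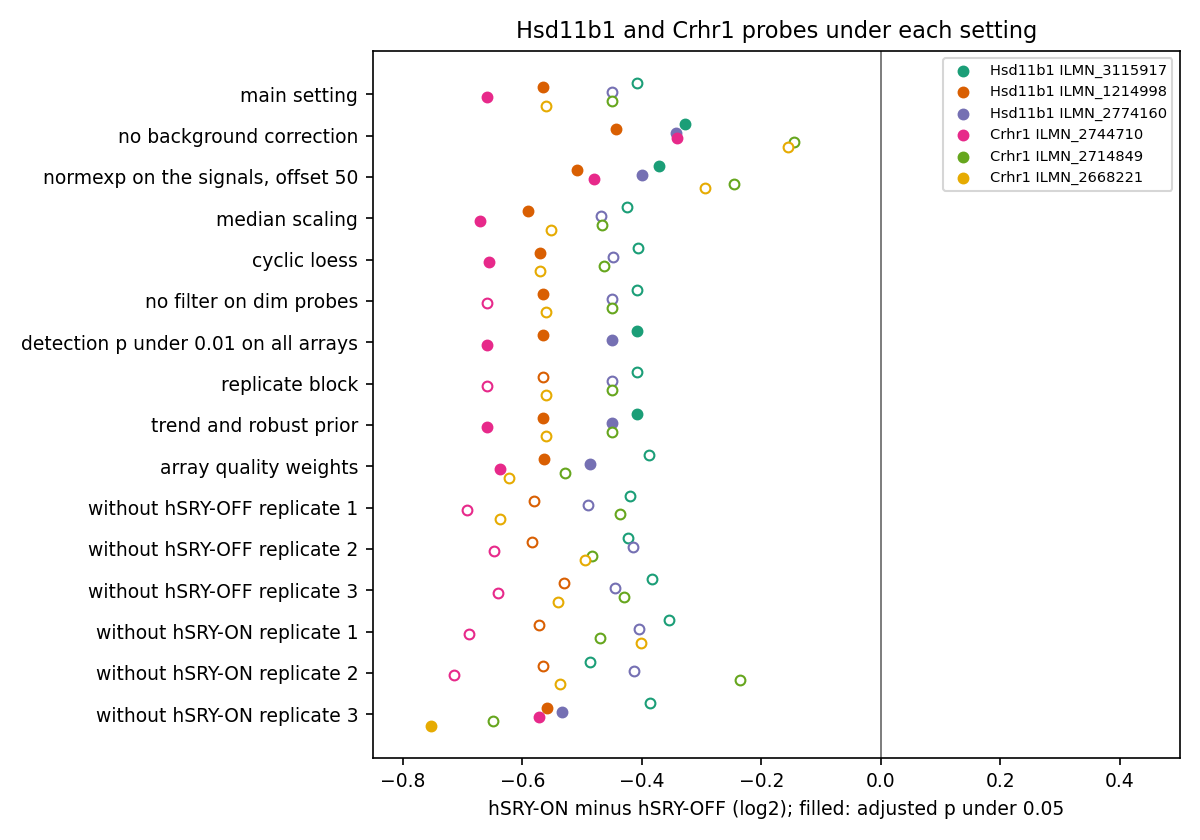
Difference between hSRY-ON and hSRY-OFF (log2) at the 6 tested probes of Hsd11b1 and Crhr1 under the main setting and each alternative that tested them, filled where the limma adjusted p is under 0.05. All points lie below 0, and without background correction the Crhr1 points move to between -0.34 and -0.15.

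Most of the wider corticosteroid pathway, taken from lists written with earlier results of these arrays known, did not pass the threshold. For these lists the brightest tested probe stood for each gene, and 0.91% of the 10548 symbols with a tested probe were called higher and 1.48% lower. At an unadjusted p under 0.05, 1040 of these symbols were higher and 1225 lower. In the chaperone cycle, 15 of 19 listed genes were tested, 1 was called higher and 0 lower in limma (3 lower at an unadjusted p under 0.05), and the median difference was -0.064 against 0.000415 over all symbols. Leaving out hSRY-ON array 1 gave -0.031 and leaving out hSRY-OFF array 2 gave -0.039. The called gene was Fkbp5, the immunophilin that opposes hormone binding and is itself induced by glucocorticoids. It rose from 8.60 ± 0.13 to 9.37 ± 0.17 (SD, n = 3 per group), by 0.77 (SE 0.11, limma adjusted p 0.0325), with all hSRY-ON arrays above all hSRY-OFF arrays. Hsp90aa1, the inducible cytosolic HSP90, differed by -0.36 (limma adjusted p 0.229, -0.21 without hSRY-OFF array 2 and -0.15 without background correction) and Hsp90b1, the HSP90 of the endoplasmic reticulum, by -0.29 (0.120). Fkbp5 and Fkbp4, which compete for the same receptor complex, thus lay on opposite sides of 0, but only the first was called.

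Of the coregulators, 8 of 13 listed genes were tested and 0 were called in limma, with 1 higher and 2 lower at an unadjusted p under 0.05 and a median of -0.076, which turned to 0.0031 without hSRY-ON array 3. Med1, a subunit of the Mediator complex, differed by 0.41 (limma adjusted p 0.210) and by 0.24 without hSRY-ON array 3. Pnrc2, a nuclear receptor coactivator that also takes part in mRNA decay, differed by -0.31 (0.0866) and the corepressor Ncor1 by -0.27 (0.237), or -0.17 without hSRY-ON array 1.

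Around Crhr1, the ligand and its downstream hormone were out of reach of the arrays, since Crh and Pomc were detected on no array. Of 15 listed genes of the hypothalamic and pituitary axis, 4 were tested and 0 were called in limma, with 1 higher at an unadjusted p under 0.05. Avp, which encodes the peptide vasopressin that acts with Crh on the pituitary, read 8.43 ± 0.16 in hSRY-OFF and 9.63 ± 0.57 in hSRY-ON (SD, n = 3 per group). Its difference of 1.20 (SE 0.27) had groups that did not overlap and an adjusted p of 0.0680 in limma, and it passed under 5 alternatives, at 0.00204 without background correction and 0.0219 without hSRY-ON array 3 among them. Avpr1a, a vasopressin receptor, differed by 0.17 (limma adjusted p 0.431, 0.072 without hSRY-OFF array 2) and Crhr2, the second receptor of the Crh family, by 0.14 (0.732), with the sign of Crhr2 turning to -0.076 without hSRY-ON array 2.

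Genes that bring corticosteroid to the cell, make it or clear it were mostly unmeasured. Of 20 listed, 8 were tested and 0 were called in limma, with 1 higher (Cyp11b2, which passed the filter through hSRY-ON alone) and 1 lower at an unadjusted p under 0.05. Serpina6, the corticosteroid-binding globulin, and Abcb1a, the drug efflux pump of brain vessels, were detected on no array. H6pd, which makes the NADPH that Hsd11b1 uses, differed by -0.14 (limma adjusted p 0.486, named after its value was seen). Abcb1b differed by -0.29 (limma adjusted p 0.177) and Hsd3b2 by 0.28 (0.405). Cyp11b2 was detected on the 3 hSRY-ON arrays only and was at least 1.04-fold above the hSRY-OFF bound (limma adjusted p 0.155). Hsd3b2 was 0.14 without hSRY-OFF array 2, and Abcb1b was -0.078 without background correction. The bound takes, on each hSRY-OFF array, the higher of the dimmest detected signal and the probe's own. Abcb1b and Hsd3b2 have close paralogs, and which copy these probes read is uncertain.

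Of the genes that glucocorticoids induce, 5 were called higher in hSRY-ON. The list overlaps one already known to rise on these arrays, so its count is not independent evidence of direction. All 18 tested genes of 20 listed had a difference above 0, 5 were called and 0 were lower, with a median of 0.42, where 5289 of all 10548 symbols lay above 0. Lcn2, among the 18, was detected in hSRY-ON only and passed the filter through that group, and the median of the other 17 was 0.34. Without hSRY-ON array 1 the median was 0.23, with 16 of 17 above 0. Besides Fkbp5, the called genes were Fam107a, an actin-binding stress gene (2.03, limma adjusted p 0.0263), Sult1a1, a sulfotransferase (1.73, 0.00540), and the metallothioneins Mt2 (0.83, 0.0263) and Mt1 (0.75, 0.0243). Without background correction Mt2 was 0.32 higher and Fam107a 1.35 higher. At the level of transcripts, therefore, Hsd11b1 and Crhr1 were lower in the same brains in which these 5 genes were higher. The paper reports slower growth, stomachs lacking milk and early deaths among hSRY-ON pups. Feeding, illness and survival thus went with group, and their part in these differences was not tested.

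**Figure D4:**
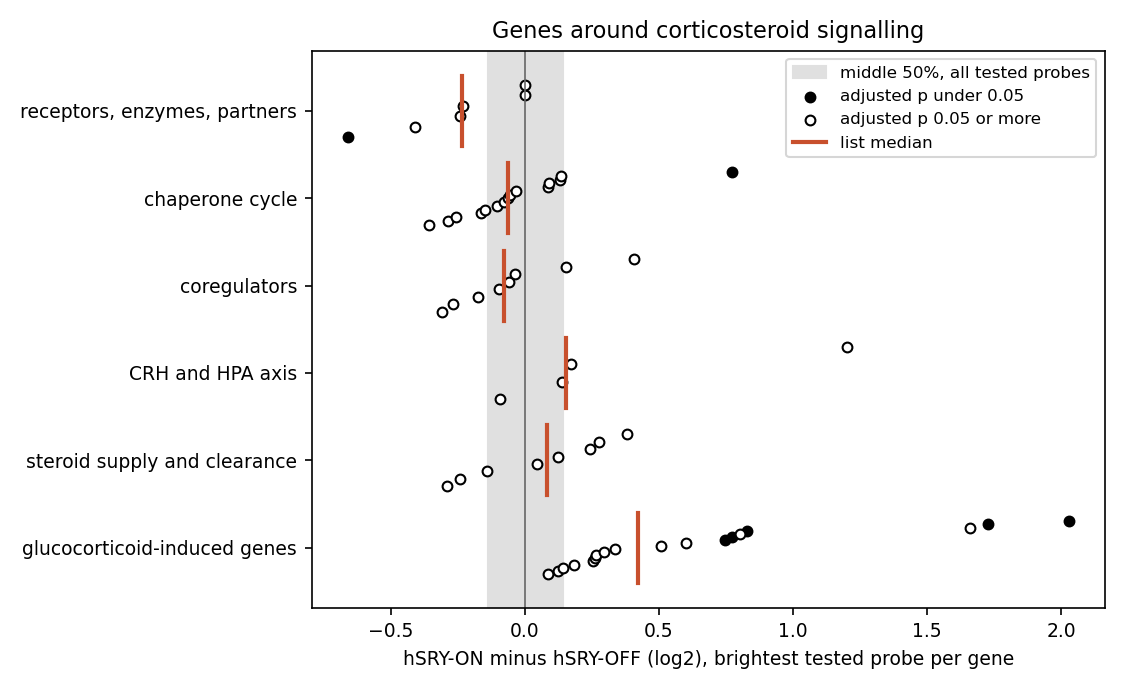
Difference between hSRY-ON and hSRY-OFF (log2) for the brightest tested probe of each gene in 6 lists, with called genes filled, the median of each list as a red bar and the middle 50% of all tested probes in grey. The glucocorticoid-induced genes lie to the right of 0, with 5 called. Among the receptors, enzymes and partners only Crhr1 is filled, since the called Hsd11b1 probe is not its brightest.

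Other cell types of the brain and its surroundings were read through marker lists. In bulk tissue, fewer cells of a type and less RNA per cell cannot be told apart. Of the neuronal markers, 6 of 8 were tested and 0 were called in limma (1 lower at an unadjusted p under 0.05), and their summed normalized signal ranged from 53825 to 58562 in hSRY-OFF and from 56862 to 58265 in hSRY-ON. Slc17a7, the vesicular glutamate transporter of cortical excitatory neurons, which also express Crhr1, differed by -0.63 (limma adjusted p 0.0595) without overlap. The neuronal list as a whole did not follow it, with 3 markers above 0, 3 below and a median of 0.012. In astrocytes 2 of 7 tested markers were called, both lower (Gfap -0.83 and Aqp4 -0.81), while Aldoc differed by 0.28 (limma adjusted p 0.105) and the summed signals were 43416 to 43715 in hSRY-OFF and 41843 to 47435 in hSRY-ON. At an unadjusted p under 0.05, 3 astrocyte markers were lower, Aldh1l1 (-0.48, limma adjusted p 0.0834) among them, and 1, Aldoc, was higher. In the oligodendrocyte lineage 1 of 8, Mobp, was called lower, with summed signals of 31095 to 36993 in hSRY-OFF and 24459 to 25118 in hSRY-ON. At an unadjusted p under 0.05, 6 of these 8 were lower, each without overlap, and the median was -0.36. Pdgfra lay above 0 (0.19, limma adjusted p 0.254), also without overlap. Choroid plexus markers had 0 of 5 called and sums of 14969 to 17982 in hSRY-OFF and 18377 to 22980 in hSRY-ON. At an unadjusted p under 0.05, 3 of these 5 were higher, and 1 of the 3, Kl, passed the filter through hSRY-ON alone. Of 6 tested endothelial markers Vwf was called higher (limma adjusted p 0.0240), and at an unadjusted p under 0.05 Flt1 (0.49) was higher too and Cdh5 (-0.35), Cldn5 (-0.42) and Tek (-0.53) were lower. Among microglial, granule cell precursor, erythroid and meningeal markers 0 of 7, 2, 4 and 5 tested were called in limma. Of the meningeal markers 4 of 5 lay below 0, among them Lum with -1.09 (limma adjusted p 0.0682) and Col1a1 with -0.69 (0.102), both without overlap. Slc6a13 went the other way, by 0.25 (limma adjusted p 0.171), also without overlap. The part of these cell types in the Hsd11b1 and Crhr1 differences was not tested. The pituitary expresses Crhr1 strongly. Of its 6 markers in the table, Prl, Pomc, Cga, Tshb and Pit1 were detected on no array, while Gh was detected on 1 hSRY-OFF and 2 hSRY-ON arrays. The liver is a rich source of Hsd11b1. Of its 6 markers, Alb, Fgb, Cyp2e1 and Serpina1a were detected on no array and Apoa2 on 1, while Ttr, which the choroid plexus also makes, differed by 0.37 (limma adjusted p 0.144).

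The probes whose pattern over the 6 arrays was most like that of each tested receptor or enzyme were found by Pearson's r of the normalized log2 signals, as a description. Trim36 was among those most like Hsd11b1 at ILMN_3115917 (r = 0.996, Spearman's rho 0.943). For Crhr1 (ILMN_2744710) they were Psme3 (r = 0.997, rho 1) and Vps29 (r = 0.994, rho 0.943), and for Hsd11b2 they were Metap2 (r = 0.989, rho 0.829) and Auts2 (r = 0.989, rho 0.886). Without the 2 arrays farthest from the median, r was at least 0.969 for these 5 probes. With 6 arrays such values are common, and r was above 0.95 for 127 probes of other genes with Hsd11b1, 113 with Crhr1 and 24 with Hsd11b2. The points share the difference between the groups, and Trim36 was itself called lower (limma adjusted p 0.0421).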

How the data were processed

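Total RNA of whole brain was hybridized to MouseRef-8 v2.0 bead arrays. The authors deposited, per the file headers, the mean bead signal intensity of each probe on each array, not normalized, and a detection p-value against negative-control beads. The labels name limma among the processing tools without a version, and the methods name the R package TCC, while the table itself is headed as not normalized. TCC was not used here.

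Groups came from the labels. The tools were limma 3.58.1 on R 4.3.3. Background came from the negative-control beads that the detection p-values imply (798 per array), and intensities were corrected by normexp with an offset of 16, quantile normalized and put on the log2 scale. A probe was tested where 3 or more of the 6 arrays detected it at 0.05, which left 14215. The groups were compared by lmFit and eBayes with no covariate (two-sided), p-values were adjusted by Benjamini-Hochberg over these 14215, and a call was made at 0.05. The steps were run on simulated data with a log2 change of 1 at 200 probes. That change is larger than any difference among the member probes, so the run does not show how well smaller ones are found. The arrays detected 13816 to 14377 probes each, and their number, 3 per group, limits the precision. The named genes were all probes of the listed symbols, the called genes of each pathway list (or the largest differences, up to 3), and the most alike probes, of which some are not reported here. Members and lists were chosen with earlier results of these data known. Alternatives were other background corrections, normalizations, filters, a replicate block, another prior, array weights and leaving out each array.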

Additional observations from a re-analysis of the deposited data

How the results depend on the processing

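The 7 probes of Hsd11b1, Hsd11b2, Crhr1 and Fkbp4 that all arrays detected were below 0 in all 77 fits under the 11 alternatives that can move a fold change (the filters, the block and the prior cannot), and none of the called probes among these and the named pathway genes changed direction. The number of called probes among the 11 was 2 with median scaling or cyclic loess and 3 with array quality weights. It became 5 without background correction, 4 with normexp on the signals and an offset of 50, 1 with no filter on dim probes, 4 of 6 tested with a detection p-value under 0.01 on all arrays, 5 with a trend and robust prior, and 0 to 4 with 1 array left out. Over the whole table the count of 308 became 1317, 860, 123, 705 and 1447 in the same order, 480 with array quality weights, and 0 to 417 with 1 array left out. The cause of these shifts was not tested beyond the change in the number of probes tested.

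With the replicate block, limma called 0 of the 11 probes (7 at an unadjusted p under 0.05) and 0 over the table (2906 at an unadjusted p under 0.05). The labels give no shared source for equal numbers. The deviations of equally numbered arrays correlated by 0.040, 0.029 and 0.025, too little to pair them, although every array correlated best with its own number.

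With array quality weights the sign turned for Ncoa2 (0.077 and 0.013 at its 2 probes) and Ptges3 (-0.026), and for Ptges3 also with median scaling (-0.014) and cyclic loess (-0.0030). With 1 array left out, Ncoa2 ranged from -0.15 to 0.13 and from -0.18 to 0.087, Ptges3 from -0.089 to 0.16 and Crhr2 from -0.076 to 0.29. Fkbp5, Fam107a, Mt1 and Mt2 lost their calls with the replicate block and without each array but hSRY-ON array 3, with adjusted p-values of up to 0.109. Sult1a1 lost its call with the block (0.0812), when array 1 (0.0505) or 3 (0.0696) of hSRY-OFF was dropped and when array 2 of hSRY-ON (0.0502) was dropped. Signals near the detection limit bound what can be read at Hsd11b2, Ncoa2 and the dimmer Crhr1 probes.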
